A study of Arabidopsis thaliana with 9 samples.

Results

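The 10 genes described here encode large ATP-driven chaperones of *Arabidopsis thaliana*, and were taken by locus identifier from the 33557 genes of the authors' deposited table. They are 5 genes for cytosolic HSP70 proteins (HSP70-1 to HSP70-5), 3 for cytosolic HSP90 proteins (HSP90.1, HSP90.2 and HSP90.3) and 2 for HSP100 proteins of the CLPB type (CLPB1, also called HSP101, and CLPB4). The seeds were of 3 genotypes: wild type (WT) of accession Columbia-0, a loss-of-function mutant of NAC25 (*nac25*) and a loss-of-function mutant of NAC1L (*nac1L*), both genes for transcription factors of the NAC family. All seeds were imbibed and collected at 12 h, whole, with 3 replicates per genotype and 9 RNA-seq libraries in all. The labels name imbibition and no heat treatment, and give 1 mutant for each NAC gene. The authors' deposited table gives, for each pair of genotypes, a log2 fold and a Cuffdiff test, and no level per library or per genotype, so that depth and spread between replicates are unknown and each value is the authors' own.

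HSP70 chaperones bind exposed hydrophobic stretches of unfolded proteins and release them in cycles of ATP hydrolysis. HSP90 chaperones act later, on clients such as kinases, receptors and transcription factors, and hold the heat shock transcription factors in check in the absence of stress. HSP100 proteins of the CLPB type thread aggregated proteins through a hexameric ring and hand them back to HSP70. Many of these genes are driven by heat shock factors that bind a repeated heat shock element, and HSP101 also accumulates during seed maturation and is needed for the heat tolerance of germinating seeds.

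By the deposited q, the cytosolic HSP70 and HSP90 genes parted by gene within each family, and both HSP100 genes were called higher, in both mutants. Most of the lower calls in the HSP90 family did not hold after the centring described below. In *nac1L* against WT, the authors' deposited table called 4 of the 10 higher (HSP70-5, HSP90.1, CLPB1 and CLPB4) and 4 lower (HSP70-2, HSP70-3, HSP90.2 and HSP90.3) at an adjusted q of at most 0.05 in Cuffdiff. In *nac25* against WT, it again called 4 higher and 4 lower. HSP70-1 and HSP70-4 passed the test in neither comparison. For comparison, the authors' deposited table called 9.62% of everything it tested in *nac1L* as higher and 18.9% as lower, and 6.25% of everything it tested in *nac25* as higher and 32.8% as lower. Both comparisons use the same WT libraries, so the values of the mutants below stand side by side and are not independent of each other. The whole table shifts towards lower folds in *nac25*: its median log2 fold was -0.07 over the genes tested in *nac1L* and -0.27 over those in *nac25*, against -0.02 and 0.05 for the 10 chaperone genes.

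**Figure D1:**
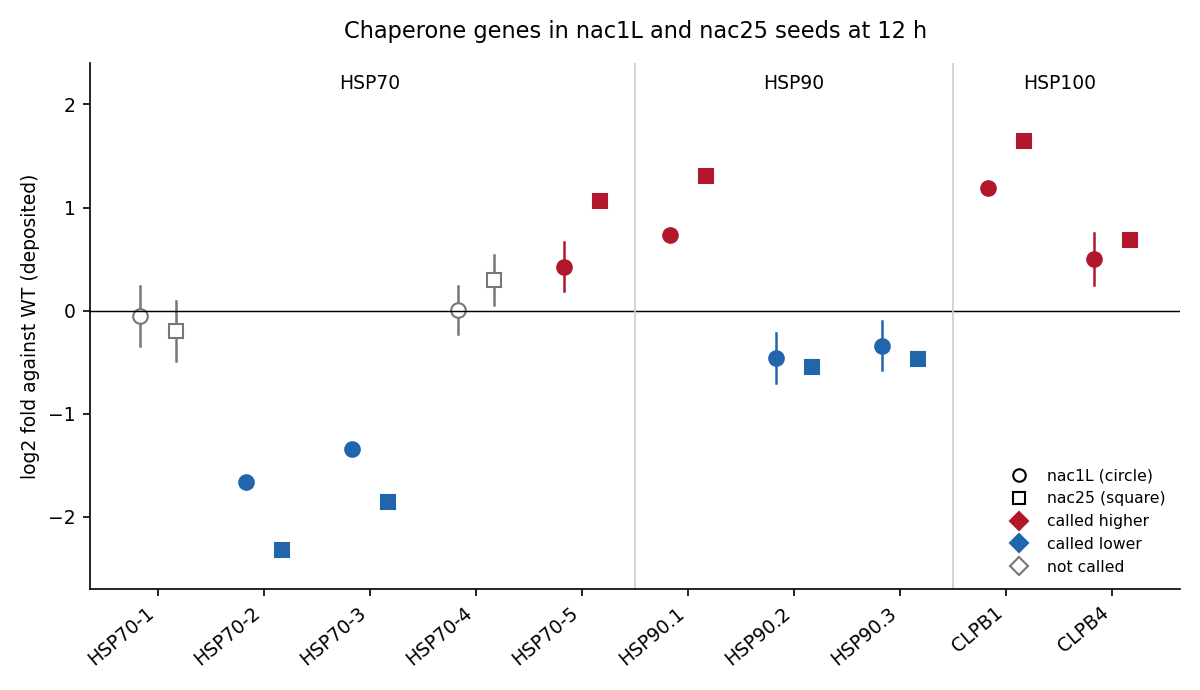
Log2 fold of each chaperone gene against WT in *nac1L* (circles) and *nac25* (squares), from the authors' deposited table. Filled symbols passed at q of at most 0.05, red higher and blue lower; bars are approximate 95% intervals implied by the deposited p-value, and symbols without a bar lie at the smallest p-value of the table. HSP70-5, HSP90.1, CLPB1 and CLPB4 lie above 0 in both mutants and HSP70-2 and HSP70-3 below it, while the lower calls of HSP90.2 and HSP90.3 in *nac25* are lost after centring on the median of all genes.

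The folds were therefore also centred on the median of all tested genes. After centring, the share of the tested genes called was 12.4% higher and 15.1% lower for *nac1L*, and 15.8% higher and 14.6% lower for *nac25*. Of the 10 chaperone genes, 4 were then called higher and 3 lower in *nac1L*, and 5 higher and 2 lower in *nac25*. The calls that held under both scalings were those of HSP70-5, HSP90.1, CLPB1 and CLPB4 as higher and HSP70-2 and HSP70-3 as lower. The lower call of HSP90.2 held in *nac1L* and not in *nac25*, and that of HSP90.3 held in neither.

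**Figure D2:**
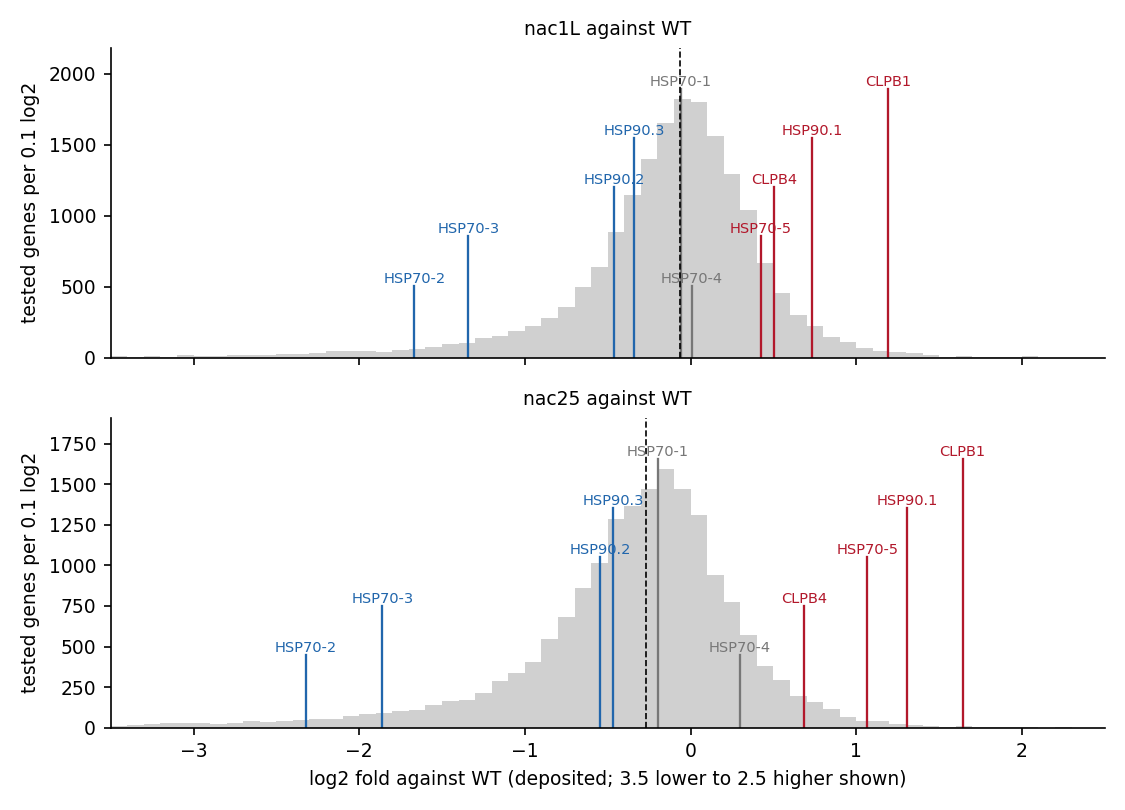
Distribution of log2 folds against WT of all genes with a finite fold and a test (grey bars, number of genes per 0.1 log2) with the 10 chaperone genes as vertical lines, whose heights only separate the labels. Red lines passed as higher, blue as lower and grey did not pass, and the dashed line is the median of all tested genes, at -0.07 in *nac1L* and -0.27 in *nac25*. CLPB1 and HSP90.1 stand in the upper tail and HSP70-2 and HSP70-3 in the lower tail, while HSP90.2 and HSP90.3 lie within the bulk.

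The upstream sequence of the genes was read from RefSeq (assembly TAIR10.1) by locus identifier, to show the heat shock elements beside the folds. All 10 genes matched. The search covered 500 bases before the start codon, on both strands, for a heat shock element of 3 units (GAANNTTCNNGAA or TTCNNGAANNTTC). Such an element stood upstream of 5 of the 10 chaperone genes and of 1.2% of 27443 genes of the annotation. The sites are shown 5′ to 3′ along the strand of the gene, with the element in capitals and 8 bases on either side.
HSP70-1, chr5:556554-556582, minus strand: caaccatcGAACATTCTCGAAacatttta
HSP70-2, chr5:552686-552714, minus strand: taattacaGAACATTCTGGAAactcaagt
HSP70-3, chr3:2905894-2905922, minus strand: atcgaaccGAACATTCTCGAAccttttta
HSP70-3, chr3:2905765-2905793, minus strand: gagccatcGAACCTTCTCGAAactcgagt
HSP70-4, chr3:3993846-3993874, minus strand: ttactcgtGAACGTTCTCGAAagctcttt
HSP90.1, chr5:21352254-21352282, plus strand: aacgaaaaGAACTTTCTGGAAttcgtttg

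The sites of the HSP70 genes lie within the annotated gene, ahead of the coding sequence, and that of HSP90.1 lies outside it as annotated. Their first bases are 240 bases before the start codon in HSP70-1, 141 in HSP70-2, 282 and 153 in HSP70-3, 177 in HSP70-4 and 295 in HSP90.1. The 5 genes with the 3-unit element did not share a direction: HSP70-2 and HSP70-3 were called lower in both mutants, HSP90.1 was called higher, and HSP70-1 and HSP70-4 were not called by the deposited q. A shorter element of 2 units (GAANNTTC or TTCNNGAA), which every 3-unit element contains, was found in 8 of the 10 genes and in 33.9% of all genes. HSP70-5, CLPB1 and CLPB4, all called higher, held the shorter form alone, at 150, 478 and 156 bases, and HSP90.2 and HSP90.3 held neither. The G-box CACGTG, bound by bZIP and bHLH factors, stood upstream of HSP70-1 and CLPB1, against 9.34% of all genes. The RY core (CATGCA or TGCATG), bound by B3 factors of seed maturation, was found in 0 of the 10 windows and in 14.3% of all genes. Over 1000 bases, the RY core stood in 2 of the 10 and in 29.2% of all genes. The G-box then stood in 3 of the 10 and in 15.1% of all genes. These matches describe the letters in the window and are no evidence of binding.

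**Figure D3:**
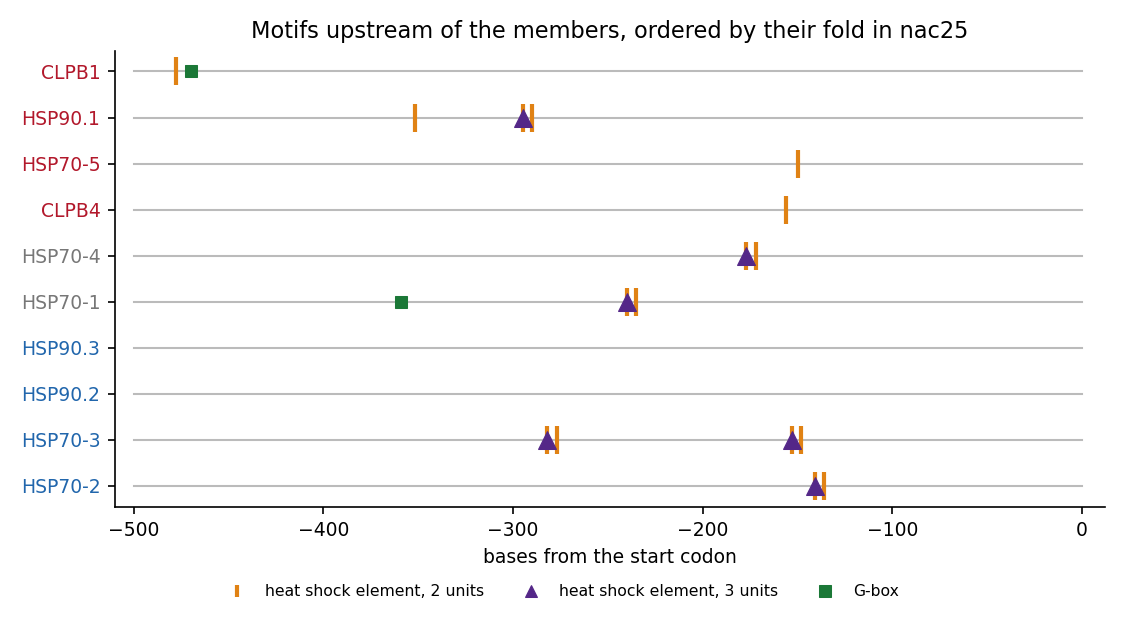
Position of heat shock elements and the G-box in the 500 bases before the start codon of the 10 chaperone genes, in bases from the start codon. Genes run from the highest log2 fold in *nac25* at the top to the lowest at the bottom, and names are red where called higher in *nac25*, blue where called lower in *nac25* (for HSP90.2 and HSP90.3 before centring only) and grey where not called. Elements of 3 units (triangles) stand in HSP90.1, HSP70-4, HSP70-1, HSP70-3 and HSP70-2, that is in genes of either direction.

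Among the cytosolic HSP70 genes, HSP70-2 (AT5G02490, named MED37D in the table) and HSP70-3 (AT3G09440) fell in both mutants. HSP70-2 fell 3.17-fold in *nac1L* (log2 fold -1.67) and 5.00-fold in *nac25* (-2.32) in the authors' deposited table, both with Cuffdiff q = 0.000463, the smallest value the table holds. HSP70-3 had log2 folds of -1.34 in *nac1L* and -1.86 in *nac25* in the authors' deposited table, at that same q. Of all genes tested, 3.26% had a lower fold than HSP70-2 in *nac1L* and 2.79% in *nac25*, and for HSP70-3 these shares were 4.75% and 4.57%. Centring left both calls in place, with log2 folds of -2.06 for HSP70-2 and -1.59 for HSP70-3 in *nac25*. Both genes encode cognate HSP70 proteins, the forms that cells make without heat.

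HSP70-5 (AT1G16030), whose transcript is strongly induced by heat, went the other way. Its log2 fold in the authors' deposited table was 0.43 in *nac1L* (approximate 95% interval 0.19 to 0.66, Cuffdiff q = 0.00321) and 1.07 in *nac25* (q = 0.000463), the former 1.34-fold higher than in WT. In *nac25*, 0.802% of tested genes had a higher fold than HSP70-5, against 10.9% in *nac1L*. From HSP70-5 down to HSP70-2, the cytosolic HSP70 genes spanned 2.09 log2 units in *nac1L* and 3.39 in *nac25*, where the ratio of the HSP70-5 fold to the HSP70-2 fold was 10.5. The difference between genes was not tested.

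HSP70-1 (AT5G02500, MED37E in the table), the major constitutive cytosolic HSP70, did not pass the test. The authors' deposited table gave it a log2 fold of -0.06 in *nac1L* (approximate 95% interval -0.35 to 0.24, Cuffdiff q = 0.816) and of -0.20 in *nac25* (-0.49 to 0.10, q = 0.341). HSP70-1 is the direct neighbour of HSP70-2 on chromosome 5, on the same strand, with 917 bases and 0 other protein-coding genes between them, and their coding sequences are identical at 87.2% of aligned bases. The interval of HSP70-1 in each mutant lies above the fold of HSP70-2. HSP70-1 and HSP70-3, on different chromosomes, share 84.4% of aligned coding bases.

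HSP70-4 (AT3G12580, MED37C in the table), a heat-induced cytosolic HSP70, had a log2 fold of 0.01 in *nac1L* in the authors' deposited table (approximate 95% interval -0.23 to 0.24, Cuffdiff q = 0.973). In *nac25* its log2 fold was 0.30 (0.06 to 0.54, q = 0.0553), just short of the threshold in the authors' deposited table. Centred on the median of all genes, the *nac25* value became 0.56 with a recomputed q of 0.000228, so that HSP70-4 joined HSP70-5 as higher in *nac25* under that scaling. It also passed when p-values were adjusted within that comparison alone (q = 0.0383).

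The cytosolic HSP90 genes also parted by the deposited q. HSP90.1 (AT5G52640, HSP81-1 in the table), the heat-inducible cytosolic HSP90, rose, with log2 folds of 0.73 in *nac1L* (1.66-fold) and 1.31 in *nac25* (2.48-fold) in the authors' deposited table, both with Cuffdiff q = 0.000463. Of the genes tested, 3.6% had a higher fold in *nac1L* and 0.382% in *nac25*. HSP90.2 (AT5G56030), a constitutive form that chaperones immune receptors, had log2 folds of -0.46 in *nac1L* (approximate 95% interval -0.71 to -0.22, q = 0.00159) and -0.55 in *nac25* (q = 0.000463) in the authors' deposited table. HSP90.3 (AT5G56010), a further constitutive form, had log2 folds of -0.34 in *nac1L* (-0.58 to -0.11, q = 0.0212) and -0.47 in *nac25* (q = 0.000463) in the authors' deposited table.

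Those lower values of HSP90.2 and HSP90.3 are small beside the shift of the table. After centring, HSP90.2 in *nac25* had a log2 fold of -0.28 with a recomputed q of 0.131, and HSP90.3 had -0.20 with q = 0.227, so neither passed. Both q-values are upper bounds, because the deposited p-values of these genes in *nac25* lie at the smallest value of the table and their precision may be greater than assumed. In *nac1L*, HSP90.3 was likewise lost (-0.28, q = 0.0852), while HSP90.2 stayed called. That q may also be too high, because all tests were adjusted together. HSP90.1 lay 1.85 log2 units above HSP90.2 in *nac25*, a gap that centring leaves as it is and that was not tested.

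Reads of HSP90.2 and HSP90.3 may be assigned to the wrong copy. Their coding sequences are identical at 95.7% of aligned bases, and 19.5% of the 50-base windows in the exons of HSP90.2 and 24.8% in those of HSP90.3 occur elsewhere in the genome. HSP90.1 shares 79.5% of aligned coding bases with HSP90.3, and 0 of its windows occur elsewhere. In the HSP70 family, 0.228% of the windows of HSP70-3 and 0% of those of the other 4 genes occur elsewhere. CLPB1 and CLPB4 share 62.5% of aligned coding bases.

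Both HSP100 genes rose in both mutants. CLPB1 (AT1G74310), the cytosolic disaggregase HSP101, had log2 folds of 1.19 in *nac1L* (2.28-fold) and 1.64 in *nac25* (3.12-fold) in the authors' deposited table, both with Cuffdiff q = 0.000463. These were the highest folds of the 10 genes, and of all genes tested 0.853% lay above CLPB1 in *nac1L* and 0.182% in *nac25*. CLPB4 (AT2G25140), the mitochondrial form, had log2 folds of 0.50 in *nac1L* (approximate 95% interval 0.25 to 0.76, q = 0.000866) and 0.68 in *nac25* (q = 0.000463) in the authors' deposited table. Both calls held after centring, with log2 folds of 1.91 for CLPB1 and 0.95 for CLPB4 in *nac25*.

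The mutants were also compared with each other directly. The authors' deposited table called 3 of the 10 genes higher in *nac25* than in *nac1L* (HSP70-5, HSP90.1 and CLPB1) and 2 lower (HSP70-2 and HSP70-3), against 0.609% of tested genes called higher and 11.7% lower. HSP70-5 had a log2 fold of 0.64 and HSP90.1 of 0.57 between the mutants in the authors' deposited table, each with Cuffdiff q = 0.000463. CLPB1 had a log2 fold of 0.45 (approximate 95% interval 0.21 to 0.69, q = 0.00159) in the authors' deposited table. These genes, higher than WT in both mutants, were thus higher still in *nac25*.

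HSP70-2 and HSP70-3 stood lower in *nac25* than in *nac1L* before centring. HSP70-2 had a log2 fold of -0.66 (approximate 95% interval -1.02 to -0.30, Cuffdiff q = 0.00259) and HSP70-3 of -0.52 (q = 0.000463) in the authors' deposited table. Over all genes tested between the mutants the median was -0.20, and after centring the values became -0.46 for HSP70-2 (recomputed q = 0.0589) and -0.32 for HSP70-3 (q = 0.0582), so that neither passed. The recomputed q of HSP70-3 is an upper bound, since its deposited p-value lies at the smallest value of the table. That of HSP70-2 may also be too high, because all tests were adjusted together.

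Centring raised the higher calls between the mutants to 5 of 10, against 2.7% of tested genes, and left 0 of 10 lower, against 1.52%. The share of 1.52% may be too low for the same reason as the lower shares against WT. The genes gained were HSP70-4, at a log2 fold of 0.49 (recomputed q = 0.00174), and CLPB4, at 0.38 (q = 0.0116). By the deposited q, HSP70-4 had missed the threshold at a log2 fold of 0.29 (approximate 95% interval 0.05 to 0.53, Cuffdiff q = 0.0647) in the authors' deposited table, and CLPB4 at 0.18 (-0.05 to 0.42, q = 0.267). HSP70-1 (-0.42 to 0.14 around a log2 fold of -0.14), HSP90.2 (-0.32 to 0.15 around -0.08) and HSP90.3 (-0.36 to 0.11 around -0.13) did not pass between the mutants in the authors' deposited table, nor after centring.

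**Figure D4:**
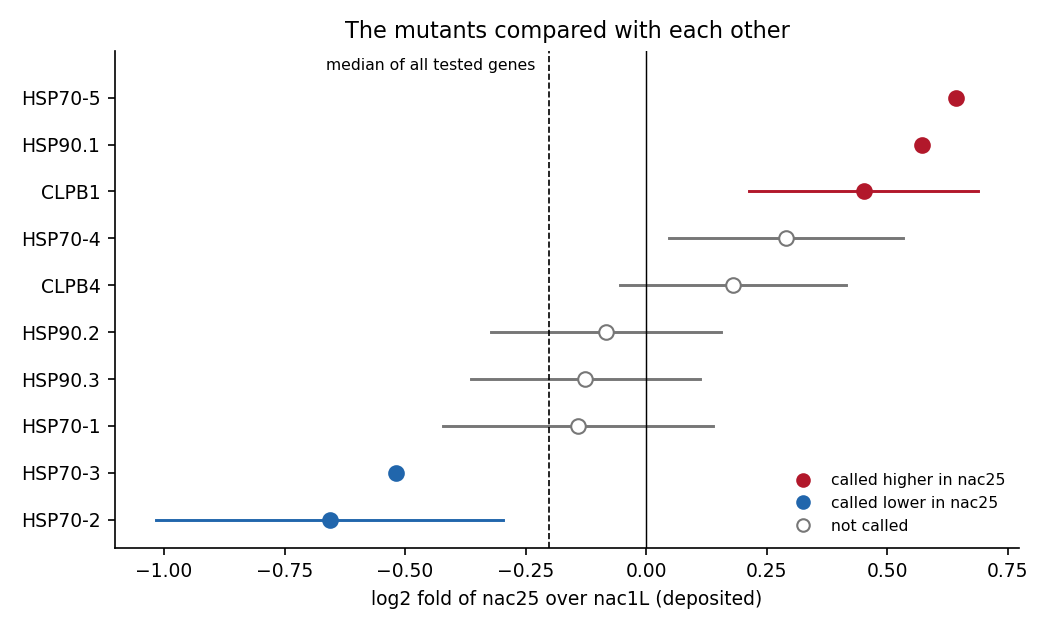
Log2 fold of *nac25* over *nac1L* for each chaperone gene in the authors' deposited table, with approximate 95% intervals implied by the deposited p-value where it lies above the smallest p-value of the table. Red genes were called higher, blue genes lower and open symbols were not called, and the dashed line is the median of all tested genes, at -0.20. HSP70-5, HSP90.1 and CLPB1 lie above 0, and HSP70-2 and HSP70-3 lie below the dashed line, although their lower calls are lost after centring on it.

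The remaining members of the same families, from lists made by locus identifier, mostly had smaller folds. Of 13 genes for organellar, endoplasmic reticulum and other HSP70 and HSP110 proteins, 11 were tested, and the authors' deposited table called 3 higher and 3 lower in *nac1L* (median log2 fold -0.13) and 2 higher and 5 lower in *nac25* (-0.29). Over all tested genes, the shares called higher and lower were 9.62% and 18.9% in *nac1L*, and 6.25% and 32.8% in *nac25*. No list was tested against these shares. After centring, 4 were higher and 2 lower in *nac25*, where the shares over all tested genes were 15.8% and 14.6%. HSP70-8 (AT2G32120), a divergent HSP70, was listed in the authors' deposited table at log2 folds of 0.99 and 1.43, both with Cuffdiff q = 0.000463. The mitochondrial MTHSC70-1 (AT4G37910) had log2 folds of -0.56 and -0.95, and the plastid CPHSC70-2 (AT5G49910) of -0.56 and -0.80, in the authors' deposited table, all at that q. The mitochondrial form MTHSC70-2 (AT5G09590) instead had log2 folds of 0.33 (q = 0.0344) and 0.50 (q = 0.000463) in the authors' deposited table. HSP70-17 (AT4G16660), an HSP110-like protein of the endoplasmic reticulum, had log2 folds of -0.35 (q = 0.0364) and -0.58 (q = 0.000463) in the authors' deposited table, and passed in neither mutant after centring (q = 0.118, and at most 0.102). The luminal chaperone gene BIP1 (AT5G28540) had a log2 fold of 0.38 in *nac1L* (q = 0.00971) and of 0.23 in *nac25*, where it did not pass (q = 0.132), in the authors' deposited table. Centred, the *nac25* value of BIP1 was called higher (0.50, q = 0.000647). The related gene BIP2 (AT5G42020) passed in neither mutant, with log2 folds of 0.11 and -0.10 (Cuffdiff q = 0.519 and 0.568). It did not pass after centring either (q = 0.333 and 0.379). Whether reads of BIP1 and BIP2 can be assigned to the wrong copy was not examined. Between the mutants, the authors' deposited table called HSP70-8 higher in *nac25* (log2 fold 0.44) and MTHSC70-1 (-0.39) and HSP70-14 (-0.36) lower, and neither lower call held after centring (q = 0.3 and 0.384).

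The other HSP90 genes gave lower calls that did not pass after centring. Of 4 such genes the authors' deposited table called 1 lower in *nac1L* (HSP90.4, log2 fold -0.37, Cuffdiff q = 0.0142) and 4 lower in *nac25*, with log2 folds from -0.63 for HSP90.7 of the endoplasmic reticulum to -0.34 for HSP90.5 of the plastid. HSP90.6 of the mitochondrion had -0.40 and HSP90.4 -0.38 in *nac25* in the authors' deposited table. Over all tested genes, 18.9% were called lower in *nac1L* and 32.8% in *nac25*. After centring, 0 of the 4 were called in either mutant. For HSP90.7 in *nac25* the recomputed q of 0.0771 is an upper bound, so that this loss is not certain. Its deposited p-value there lies at the smallest value of the table. HSP90.4 (AT5G56000) stands 1085 bases from HSP90.3 and shares 95.4% of its aligned coding bases, so its reads too may be assigned to a neighbouring copy.

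Of 5 further HSP100 and CLP ATPase genes, 4 were tested. The authors' deposited table called 2 higher and 1 lower in *nac1L*, and 1 higher and 1 lower in *nac25*. The shares of all tested genes called higher and lower were 9.62% and 18.9% in *nac1L*, and 6.25% and 32.8% in *nac25*. CLPD (AT5G51070), a plastid protein known from dehydration and senescence, had log2 folds of 0.61 and 0.71, and CLPC2 (AT3G48870), of the plastid stroma, of -0.50 and -0.76, in the authors' deposited table with Cuffdiff q = 0.000463 for each. CLPC1 (AT5G50920), also of the stroma, had log2 folds of 0.32 (q = 0.0472) and 0.30 (q = 0.0564) in the authors' deposited table. After centring, CLPC1 was called higher in *nac25* too (q = 0.00023), which gave 2 higher and 1 lower of the 4 in each mutant. CLPB3, the plastid relative of CLPB1 and CLPB4, had log2 folds of 0.02 in *nac1L* and -0.01 in *nac25* and did not pass in the authors' deposited table (q = 0.913 and 0.978). Within the CLPB type, the cytosolic and mitochondrial forms were thus called higher and the plastid form was not, a difference that was not tested, and CLPB2 had too few reads for a test.

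**Figure D5:**
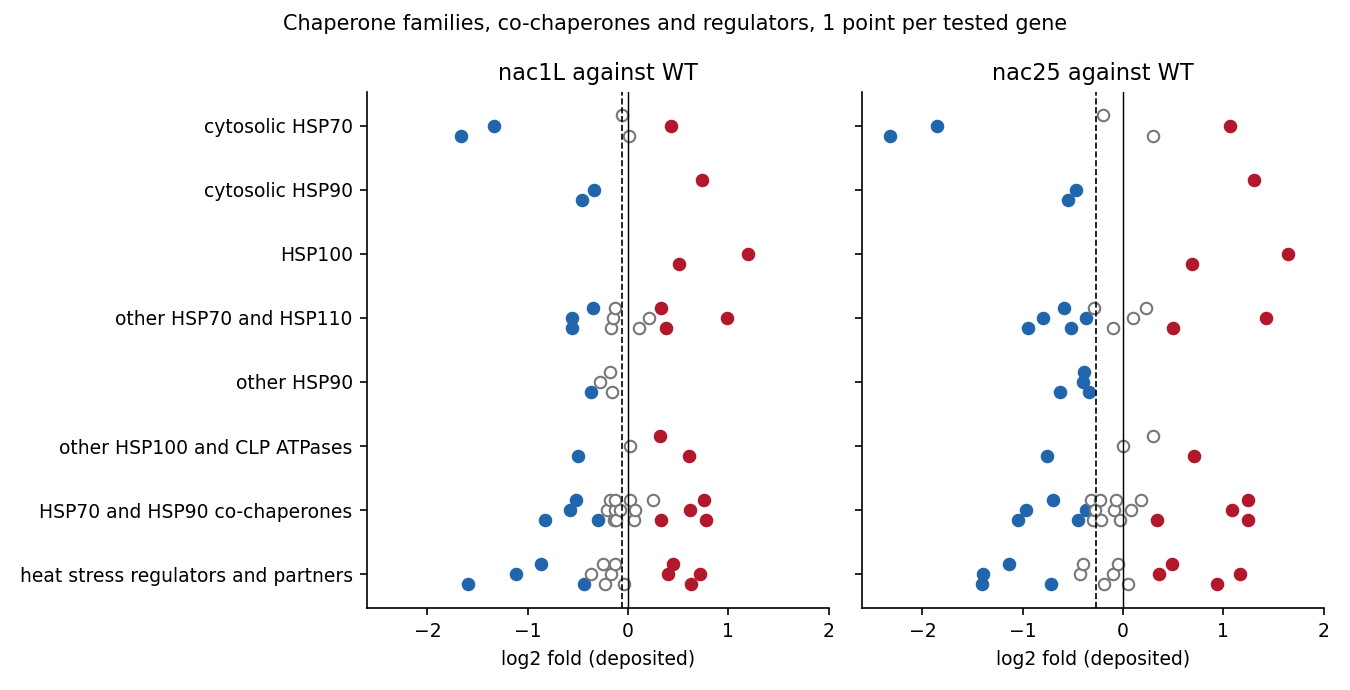
Log2 folds against WT of every tested gene in 8 lists of chaperones, co-chaperones and heat stress regulators, from the authors' deposited table, with *nac1L* on the left and *nac25* on the right. Red points were called higher, blue points lower and open points were not called, and the dashed line is the median of all tested genes. The cytosolic HSP70 genes and the heat stress regulators reach to both sides. The other HSP90 genes all lie below 0 and lose their calls after centring, which is not certain for HSP90.7 in *nac25*.

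Of 19 co-chaperones that work with HSP70 and HSP90, the authors' deposited table called 4 higher and 4 lower in *nac1L* (median log2 fold -0.12) and 4 higher and 5 lower in *nac25* (-0.22). After centring, 6 were higher and 2 lower in *nac25*. The count of 2 may be too low, because the recomputed q of genes at the smallest p-value is an upper bound. HOP proteins hold HSP70 and HSP90 together. HOP3 (AT4G12400), the stress-induced form, had log2 folds of 0.78 and 1.24 and HOP1 (AT1G12270) of -0.83 and -0.97 in the authors' deposited table, with Cuffdiff q = 0.000463 for each. ROF2 (AT5G48570), an immunophilin that binds HSP90.1, had log2 folds of 0.75 and 1.08, and BAG6 (AT2G46240), a partner of HSP70, of 0.62 and 1.24, in the authors' deposited table, all at that q. RAR1 (AT5G51700), which works with HSP90 in plant immunity, had log2 folds of -0.52 (q = 0.00321) and -1.05 (q = 0.000463) in the authors' deposited table. HOP2 (AT1G62740) did not pass, with log2 folds of -0.18 and -0.30 in the authors' deposited table (q = 0.478 and 0.183). Between the mutants, 2 co-chaperones were called higher in *nac25* (BAG6 and HOP3) and 1 lower (RAR1), against 0.609% and 11.7% of all tested genes. After centring, ROF2 was called higher as well (q = 0.00324) and RAR1 no longer passed (q = 0.135).

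Of 14 heat stress regulators and partners, the authors' deposited table called 4 higher and 4 lower in each mutant, with median log2 folds of -0.20 in *nac1L* and -0.15 in *nac25*. Of everything tested, 9.62% was called higher and 18.9% lower in *nac1L*, and 6.25% higher and 32.8% lower in *nac25*. After centring, 4 regulators were higher and 3 lower in *nac1L*, and 4 higher and 2 lower in *nac25*. The lower count in *nac25* may be too small for the same reason as among the co-chaperones. HSFA9 (AT5G54070), the heat shock factor of maturing seeds, rose, with log2 folds of 0.72 and 1.16 in the authors' deposited table (Cuffdiff q = 0.000463 for each) and a further 0.45 between the mutants (q = 0.0029). HSA32 (AT4G21320), which works with HSP101 in lasting heat tolerance, had log2 folds of 0.45 (q = 0.00465) and 0.93 (q = 0.000463) in the authors' deposited table. HSFB1 (AT4G36990), a repressor of heat shock genes, had log2 folds of -0.87 and -1.13 in the authors' deposited table with q = 0.000463 for each. HSFA7A (AT3G51910) and HSFA3 (AT5G03720), heat-induced factors, had log2 folds of -1.11 and -1.40 (q = 0.0144 and 0.00226) and of -1.60 and -1.39 (q = 0.0295 and 0.0398) in the authors' deposited table. The *nac25* call of HSFA3 did not hold after centring (log2 fold -1.13, q = 0.129). HSFA2, the main heat-induced factor, did not pass, with log2 folds of -0.13 and -0.10 in the authors' deposited table (q = 0.657 and 0.746). HSFA1E (AT3G02990) had log2 folds of 0.62 (Cuffdiff q = 0.000463) and 0.36 (q = 0.0217). HSFA1B (AT5G16820) had 0.40 (q = 0.0311) and 0.48 (q = 0.00519). These higher calls of HSFA1E and HSFA1B held after centring. HSFA1A and HSFA1D passed in neither mutant.

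To place CLPB1 and HSP90.1 among all genes, the 18037 genes with a test and a finite fold in both mutants were ranked by Euclidean distance over their log2 folds against WT. The 5 nearest to CLPB1 were AT3G57110 (an exonuclease V by RefSeq product), AT2G07080, AT3G51200 (a SAUR-like protein), PME32 and the calmodulin-like CML41, at distances from 0.13 to 0.17 log2 units. AT3G57110, the closest, had log2 folds of 1.31 and 1.68 in the authors' deposited table. The 5 nearest to HSP90.1 were AT3G17130, HOP3, AT1G30190, CYP76C7 and AT1G65541, at distances from 0.06 to 0.09. By RefSeq product, AT3G17130 is of the invertase/pectin methylesterase inhibitor superfamily, AT1G30190 a cotton fiber protein, CYP76C7 a cytochrome P450 and AT1G65541 uncharacterized. HOP3, a partner of HSP90, is the second nearest gene to HSP90.1, over values from 3 genotypes that share their WT libraries. The distances differ little, and their order was not tested.

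Some markers of the seed tissues differed between the genotypes and others did not, and both are given here beside the chaperone folds. In bulk seeds, fewer cells of a type and less RNA per cell cannot be told apart, and since all seeds were taken at 12 h, neither can a delay in germination and a change at the same stage. Of 6 seed reserve genes, 3 were left untested in every comparison because of too many reads, and SESA1 had log2 folds of -2.09 and -1.82 and OLEO2 of 0.40 and 0.69 in *nac1L* and *nac25* in the authors' deposited table. In the authors' deposited table CRB was higher in *nac25*, at a log2 fold of 0.53, and did not pass in *nac1L*, at -0.15 (q = 0.536). Of 4 endosperm genes, the 2 tested were called lower in each mutant, with log2 folds of -4.21 and -4.88 for the expansin gene EXPA2 and of -1.73 and -2.06 for the mannanase gene MAN7 in the authors' deposited table. Of 5 genes listed for the embryo epidermis and ground tissue, 3 were called lower in each mutant (SHR, LTP1 and PDF1), with log2 folds from -3.25 to -0.50 in the authors' deposited table. The *nac25* call of PDF1 did not hold after centring (q = 0.249). SHR is listed for its part in ground tissue, which its transcript need not mark. Of 3 seed coat genes, 0 had enough reads for a test. ATML1 and SCR, of the same embryo list, passed in neither mutant in the authors' deposited table. Their log2 folds in *nac1L* and *nac25* were -0.11 and -0.11 for ATML1, and -0.15 and -0.18 for SCR. Whether these differences of marker genes have a part in the chaperone folds was not tested. The targeted genes had too few reads for a test. NAC25 was listed with a log2 fold of -3.97 in *nac25* and -2.66 in *nac1L*, and NAC1L with -4.61 in *nac1L* and -1.89 in *nac25*, in the authors' deposited table.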

How the data were processed

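Stranded RNA-seq libraries came from whole imbibed seeds of 3 genotypes, 9 libraries in all, per the labels. The submitters' processing notes name TopHat2 2.1.0, FastQC 0.11.5 and Cuffdiff 2.2.1.3. Not given in the sources used here are genome build, annotation, read length and normalization. For this table, as deposited, there are 33557 genes in 3 comparisons, each with a log2 fold, a p-value and a q-value computed by the authors, per the file headers, and no value per library. Infinite folds fill 2222 cells and spreadsheet errors 3122, none of them for the 10 chaperone genes. The log2 fold was read as the second genotype over the first. All 10 chaperone genes were tested in all 3 comparisons, and their 3 folds add up within 0.001. Recomputing Benjamini-Hochberg values over all 54131 tests gave the deposited q-values within 5.27e-07. The smallest p-value is 5e-05 (q = 0.000463), and genes at this value are not ranked.

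A gene was called at a deposited q of at most 0.05. The design had provided for counts or normalized values per library as well, which did not apply. Approximate 95% intervals come from the standard error that the deposited p-value implies under a normal approximation, and are left out at the smallest p-value. For the centred alternative, the median of all tested genes with a finite fold was subtracted. P-values were recomputed with that standard error and adjusted over all tests of the 3 comparisons. They are upper bounds for genes at the smallest p-value. Through the shared adjustment, this can also raise the recomputed q of other genes. This procedure was tested on simulated data in which few genes changed, with an equal chance of either direction, about a common shift. In the data themselves far more genes were called, mostly lower. The simulation therefore does not show that the median of tested genes is the right centre here. No depth or detection limit can be given. The labels do not say how the replicates were grown apart, so the tests cover only the spread between these samples.

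The text names all 10 chaperone genes in every comparison, up to 4 called genes per list and comparison with the largest absolute fold, the 5 genes nearest to CLPB1 and to HSP90.1, and the targeted genes. Further genes were named after their values were seen (CLPB3, HSFA2, HSFA1A, HSFA1B, HSFA1D, HSFA1E, MTHSC70-2, BIP2, HOP2, ATML1 and SCR). The chaperone genes, the lists and the rule were chosen with earlier results of these data known. Sequences, coordinates, neighbours and coding identities come from RefSeq TAIR10.1, matched by locus identifier. The promoter search used the 500 bases before the most upstream annotated start codon, and 1000 bases where stated. Python 3.11.15 with numpy 2.4.6, pandas 2.3.3, scipy 1.17.1 and matplotlib 3.10.9 was used.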

Additional observations from a re-analysis of the deposited data

Results flagged for a closer look

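The mutants differed from each other at 5 of the 10 chaperone genes in the direct comparison of the authors' deposited table, which tests the difference itself. Of all genes tested there, 0.609% were called higher in *nac25* and 11.7% lower, at a median log2 fold of -0.20. HSP70-5 (log2 fold of *nac25* over *nac1L* 0.64, Cuffdiff q = 0.000463), HSP90.1 (0.57, q = 0.000463) and CLPB1 (0.45, q = 0.00159) were further above WT in *nac25* in the authors' deposited table. HSP70-2 (-0.66, q = 0.00259) and HSP70-3 (-0.52, q = 0.000463) were further below WT in *nac25* in the authors' deposited table, and their calls are lost after centring on the median of all genes.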

How the results depend on the processing

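Of 21 called values of the 10 chaperone genes over 3 comparisons, 16 kept their call after centring on the median of all tested genes and 5 lost it, 3 of the 9 values not called gained one, and no called value changed sign. For HSP90.2 and HSP90.3 in *nac25* and HSP70-3 between the mutants, the recomputed q is an upper bound, so that the loss is not certain. Adjusting p-values within each comparison alone kept all 21 calls and added HSP70-4 in *nac25* (q = 0.0383). Requiring at least a 2-fold change as well left 1 gene higher and 2 lower in *nac1L* against WT, 3 higher and 2 lower in *nac25* against WT, and 0 higher and 0 lower between the mutants. Centring left 2 genes lower in *nac25* against WT and gave 5 higher and 0 lower between the mutants. At a q of at most 0.01 every count of called genes stayed within 1.5 times its value at 0.05. No paired analysis was possible because the authors' deposited table gives no value per library, and leaving out replicates in turn was not run for the same reason. Depth, levels and the spread between replicates cannot be read from these values, and folds of HSP90.2, HSP90.3 and HSP90.4 carry the further limit of near-identical copies.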
